A study of Mus musculus with 36 samples.

Results

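Aif1, Lst1, Ltb and Lta are 4 of the 49568 gene names counted in the mouse macrophage line RAW264.7 and lie side by side in the class III region of the mouse major histocompatibility complex (MHC). They were chosen by name: Aif1 because it had the largest rise among the genes named in earlier work on these libraries with the peptide 65–79*SE and IFNγ, and the other 3 because they are its neighbours. The values of 65–79*SE against PBS in the IFNγ libraries chose Aif1, and through it its neighbours. For all 4 genes they are given as a description, with no test. Short peptides from human HLA-DRβ chains, 65–79*SE (the shared epitope, which marks alleles that raise the risk of rheumatoid arthritis) and 65–79*PE (the protective epitope), were given to the cells at 100 µg/ml for 72 h together with 5 ng/ml of IFNγ, an M1 stimulus, or 5 ng/ml of Il-4, an M2 stimulus, and RNA-seq was used to ask how each peptide changes the transcriptome. Each cytokine had 6 PBS, 6 65–79*SE and 6 65–79*PE libraries, 36 in all, and the PBS libraries of each cytokine were labelled with PBS as their only treatment. Replicates 1–3 and 4–6 carried different labelling schemes and are shown apart as label sets.

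Class III genes sit between the class I and class II antigen presentation genes and include complement, heat shock and TNF family members. Aif1 encodes Iba1, a calcium- and actin-binding protein of macrophages and microglia that takes part in membrane ruffling. Lst1 encodes a small leukocyte transmembrane protein with inhibitory motifs, Ltb encodes lymphotoxin beta, the membrane anchor of the lymphotoxin heterotrimer that signals through the lymphotoxin beta receptor, and Lta encodes lymphotoxin alpha, its soluble partner, which also binds TNF receptors alone.

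On GRCm38 the 4 genes occupied 34.4 kb of chromosome 17, from 35170991 to 35205351. Aif1 (ENSMUSG00000024397.14, 35170991 to 35176068, minus strand) came first, then Lst1 (ENSMUSG00000073412.6, 35185095 to 35188439, minus strand), Ltb (ENSMUSG00000024399.5, 35194439 to 35196320, plus strand) and Lta (ENSMUSG00000024402.5, 35203165 to 35205351, minus strand). All 4 are annotated as protein coding, and no exon of theirs overlaps an exon of another gene. Tnf lies between Ltb and Lta, a pseudogene of Ncr3 lies between Aif1 and Lst1, and Prrc2a and Nfkbil1 are the nearest protein-coding genes on either side.

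Upstream windows of 3 of the 4 genes, Aif1, Ltb and Lta, were found in RefSeq (GRCm38.p6), trimmed to the part before the annotated gene, and are shown because the genes are neighbours that moved together in some libraries and apart in others. Capitals mark matches to motifs of factors that act downstream of the 2 cytokines or in macrophages: GAS-type (TTC and GAA with 3 bases between), STAT6-type (TTC and GAA with 4 between), ISRE-type (TTTC and TTTC with 2 between), NF-kB-type (GGG and CC with 5 between) and PU.1-type (GAGGAA), each searched on both strands.
Aif1, chr17:35176069-35176302, minus strand: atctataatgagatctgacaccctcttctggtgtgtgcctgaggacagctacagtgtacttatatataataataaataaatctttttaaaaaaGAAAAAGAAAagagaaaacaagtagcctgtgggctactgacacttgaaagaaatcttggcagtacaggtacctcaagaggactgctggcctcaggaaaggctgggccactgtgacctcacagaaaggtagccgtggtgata
Ltb, chr17:35194257-35194438, plus strand: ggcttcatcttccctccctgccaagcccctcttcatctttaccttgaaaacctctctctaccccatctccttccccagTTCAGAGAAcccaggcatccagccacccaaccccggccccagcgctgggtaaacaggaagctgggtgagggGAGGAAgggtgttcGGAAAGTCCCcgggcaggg
Lta, chr17:35205352-35205601, minus strand: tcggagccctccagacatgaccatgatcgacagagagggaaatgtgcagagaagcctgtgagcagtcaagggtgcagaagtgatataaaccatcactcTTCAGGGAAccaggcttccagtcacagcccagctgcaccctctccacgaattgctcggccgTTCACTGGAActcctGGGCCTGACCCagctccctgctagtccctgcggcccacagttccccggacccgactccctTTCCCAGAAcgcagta

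The Aif1 stretch held 1 ISRE-type match, GAAAAAGAAA on the reverse strand, a motif found in 2.98% of 32851 RefSeq windows of 250 bases. The Ltb stretch held 1 GAS-type match (TTCAGAGAA), 1 PU.1-type match and 1 NF-kB-type match (GGAAAGTCCC). The Lta stretch held 2 GAS-type matches (TTCAGGGAA and TTCCCAGAA), 1 STAT6-type match (TTCACTGGAA) and NF-kB-type matches on both strands that overlap each other. GAS-type matches stood in 7.02% of all windows, STAT6-type in 5.85%, NF-kB-type in 45.8% and PU.1-type in 23.3%. The Aif1 and Ltb stretches, of 234 and 182 bases, are shorter than those windows of 250 bases. The part trimmed off held a PU.1-type match for Aif1 and further NF-kB-type matches for Ltb. A match describes letters and does not show that a factor binds there.

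Before the results, 1 group needs naming apart. A score of 17 genes that IFNγ induces, such as Irf1 and Ciita (the mean of their log2 CPM, where CPM are counts scaled to a common library size), was 6.37 ± 0.06 (SD, n = 3) in 65–79*SE replicates 1–3, 6.38 ± 0.0075 in 65–79*PE replicates 1–3 and 6.52 ± 0.04 in 65–79*PE replicates 4–6. It was 1.10 ± 0.03 and 1.35 ± 0.13 in the PBS libraries of the 2 label sets. In the libraries labelled 65–79*SE, replicates 4–6, it was 1.16 ± 0.20, at the level of PBS, so these libraries go against their IFNγ label and every direction drawn from them is that of the label only. The PBS libraries carried no cytokine response in either table (a like score of 12 Il-4 response genes was −1.50 ± 0.15 and −1.72 ± 0.09 with PBS and 0.57 or higher with the peptides), and in a contrast against PBS the cytokine and the peptide cannot be told apart. Total counts per library were 20666573 to 63155889 with IFNγ and 17049921 to 30639021 with Il-4. The 9 macrophage markers summed to 4041 CPM or more in every library, whereas the 5 B cell markers summed to at most 0.323 CPM and the 6 T cell markers to at most 1.49 CPM, with 4 of the 5 and 4 of the 6 genes at or under 3 counts in every IFNγ library. In RNA from a whole culture, fewer cells that express a gene and less RNA per cell cannot be told apart.

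Aif1 was scarce in PBS cells and abundant in cells with IFNγ and either peptide. In replicates 1–3 the PBS libraries of the IFNγ table held 1.79, 1.88 and 1.34 CPM, the 65–79*SE libraries 65.7, 59.2 and 61.0 CPM, and the 65–79*PE libraries 52.9, 45.6 and 47.3 CPM. All 6 peptide libraries lay far above the 3 PBS libraries, and the lowest 65–79*SE library lay above the highest 65–79*PE library. The 65–79*SE level was 37.6-fold that of PBS (log2 fold change 5.23, 95% interval 4.99 to 5.47), and against 65–79*PE it was 0.34 higher on the log2 scale (95% interval 0.17 to 0.51), both without a test because the 65–79*SE libraries chose the gene. For 65–79*SE against PBS, a contrast given as a description throughout, 22.8% of genes were past the call limits defined in the next paragraph in replicates 1–3 and 0.72% in replicates 4–6.

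With 65–79*PE and IFNγ, Aif1 rose 29.7-fold against PBS in replicates 1–3 (log2 fold change 4.89, SE 0.11, adjusted p = 5.2e-13 by edgeR's quasi-likelihood test). In replicates 4–6 the PBS libraries held 0.866, 0.867 and 0.520 CPM and the 65–79*PE libraries 53.8, 39.2 and 43.4 CPM, a rise of 60.6-fold (5.92, SE 0.18, adjusted p = 4.3e-10). The groups did not overlap in either label set. This contrast shares its PBS libraries with the contrast that chose Aif1. A gene was called where its adjusted p was under 0.05 and its fold over 1.5, which held for 19.8% of 15343 genes tested in replicates 1–3 (10.3% higher) and for 10.8% of 15563 in replicates 4–6 (6.16% higher). The rise itself was larger in replicates 4–6 than in 1–3, by 1.06 on the log2 scale (SE 0.24, adjusted p = 0.0087, 5.74% of genes called), while the mean 65–79*PE level was 48.6 ± 3.85 CPM (SD, n = 3) in replicates 1–3 and 45.5 ± 7.50 CPM in 4–6, and the mean PBS level was 1.67 ± 0.290 and 0.751 ± 0.200 CPM. Over all 18 libraries with the label set as a term the rise was 5.74 (SE 0.77, adjusted p = 5.5e-05, 12.9% of genes called), and without the libraries labelled 65–79*SE, replicates 4–6, it was 5.35 (SE 0.16, adjusted p = 1.9e-14).

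The libraries labelled 65–79*SE, replicates 4–6, held 1.33, 1.49 and 1.15 CPM of Aif1. These lay just above the 3 PBS libraries of that label set and below every library with 65–79*PE. The level followed the IFNγ response score in these 18 libraries, with the 9 libraries of high score at 39.2 CPM or more and the 9 of low score at 1.88 CPM or less. Of the 4 NK cell markers, Klrk1 moved in the same way and made up nearly all of their sum where that sum was high with IFNγ. The sum was 4.30 to 5.21 CPM with 65–79*SE and 2.02 to 2.15 CPM with 65–79*PE in replicates 1–3. It was 2.95 to 5.08 CPM with 65–79*PE in replicates 4–6, and at most 0.331 CPM in the other IFNγ libraries. With Il-4 the sum reached 2.17 CPM, and 1.38 CPM with PBS in replicates 4–6, with Klrb1c as the top gene and Klrk1 at 0. The defining marker Ncr1 had a count of 0 in every library, and the part of other cells in the Aif1 result was not tested.

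**Figure D1:**
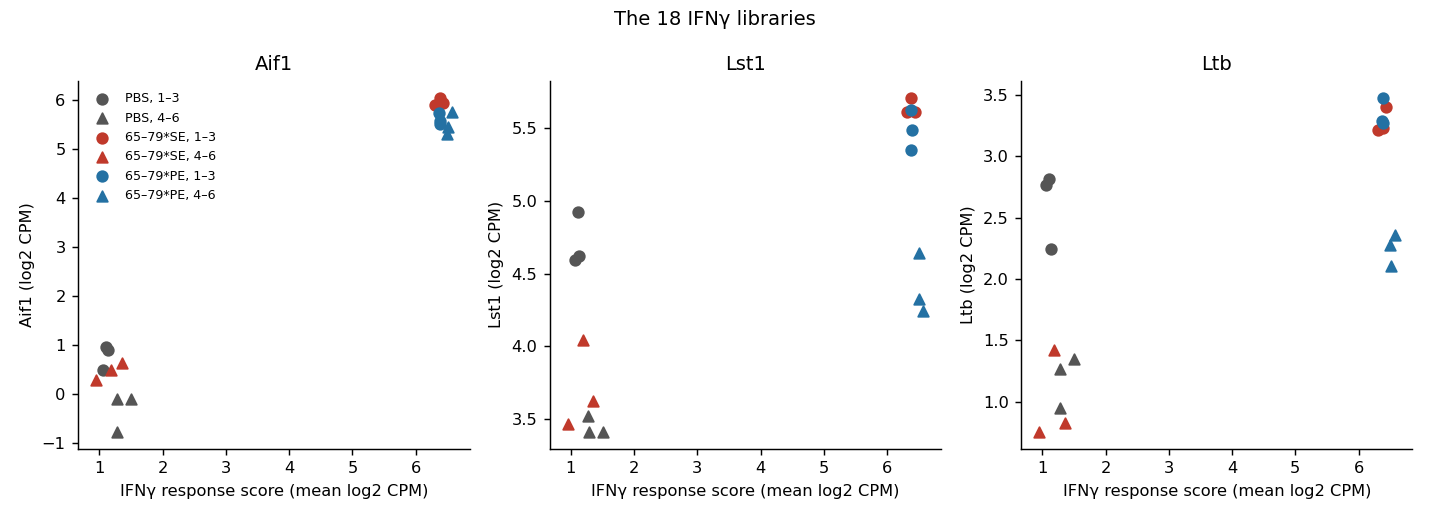
Log2 CPM of Aif1, Lst1 and Ltb (vertical axes) against the mean log2 CPM of 17 IFNγ response genes (horizontal axes) in the 18 IFNγ libraries, with 1 point per library, colours for the treatment, circles for replicates 1–3 and triangles for replicates 4–6. Red triangles, the libraries labelled 65–79*SE, replicates 4–6, sit with the PBS libraries at a mean score of 1.16, and the libraries with a score above 6 hold the high Aif1 levels.

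In the Il-4 libraries Aif1 stayed low. Replicates 1–3 held 2.90, 2.72 and 2.08 CPM with PBS, 3.69, 4.47 and 3.14 CPM with 65–79*SE, and 4.17, 4.00 and 4.70 CPM with 65–79*PE. Both peptide groups lay above PBS there without overlap, and they overlapped each other. The rise with 65–79*PE was called (1.73-fold, log2 fold change 0.79, SE 0.21, edgeR adjusted p = 0.0364; 3.95% of genes were called, 2.31% higher), and it was lost when replicate 2 or replicate 3 was left out (0.89 and 0.59, adjusted p = 0.209 and 0.393). For 65–79*SE the difference was 0.60 (SE 0.21, adjusted p = 0.0628) and was not called, whereas it was called by DESeq2 and with the replicate number as a block. In replicates 4–6, PBS held 2.91, 1.74 and 1.98 CPM, 65–79*SE 2.11, 2.25 and 2.64 CPM, and 65–79*PE 3.03, 2.06 and 3.32 CPM. All groups overlapped in this label set, and neither peptide differed from PBS (0.08 and 0.34, adjusted p = 0.896 and 0.533). Over all replicates the difference with 65–79*PE was 1.46-fold, under the fold limit (0.55, SE 0.17, adjusted p = 0.037).

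Lst1 had the highest level per length of the 4 genes in every group of both tables. The exon lengths, from GENCODE M21, were 415 bases for Lst1 and 1383 to 1532 for the others, while reads were assigned with Gencode M12. In mean CPM, Aif1 lay above Lst1 with IFNγ in 65–79*SE replicates 1–3 (62.0 against 50.1) and in 65–79*PE replicates 1–3 (48.6 against 45.0) and 4–6 (45.5 against 21.3). In PBS replicates 1–3 of the IFNγ libraries Lst1 stood at 63.3 ± 8.28 CPM per kb of exon (SD, n = 3), followed by Ltb at 4.04 ± 0.830, Aif1 at 1.09 ± 0.189 and Lta at 0.201 ± 0.0550 CPM per kb. With 65–79*SE and IFNγ the order of replicates 1–3 was Lst1 at 121 ± 4.77, Aif1 at 40.5 ± 2.18, Ltb at 6.39 ± 0.462 and Lta at 1.10 ± 0.171 CPM per kb, so that Aif1 and Ltb changed places.

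Lst1 rose with 65–79*PE and IFNγ in both label sets, and its peptide groups were about equal in replicates 1–3. Replicates 1–3 held 24.5, 30.2 and 24.1 CPM with PBS, 52.3, 48.9 and 48.9 CPM with 65–79*SE, and 40.7, 45.0 and 49.5 CPM with 65–79*PE. Every peptide library lay above every PBS library, and the peptide groups overlapped. The rise with 65–79*PE was 1.76-fold (log2 fold change 0.82, SE 0.09, edgeR adjusted p = 9.4e-06), and the untested 65–79*SE difference was 1.94-fold (0.95, 95% interval 0.75 to 1.16). The 65–79*SE minus 65–79*PE difference was 0.14 (95% interval −0.06 to 0.34, adjusted p = 0.296) and was not called, in a comparison where 6.08% of genes were.

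In replicates 4–6 the Lst1 level was lower in every group: 11.4, 10.6 and 10.6 CPM with PBS, 16.4, 12.3 and 10.97 CPM in the libraries labelled 65–79*SE, and 18.9, 24.9 and 19.99 CPM with 65–79*PE. The mean in replicates 1–3 was 2.42 times that in 4–6 for PBS and 2.12 times for 65–79*PE. The 65–79*PE rise was 1.96-fold (0.97, SE 0.14, adjusted p = 0.00039), and it did not differ between the label sets beyond its error (difference 0.19, 95% interval −0.18 to 0.56, adjusted p = 0.537). The libraries labelled 65–79*SE overlapped PBS (0.28, 95% interval −0.04 to 0.60, no test) and lay below 65–79*PE without overlap (−0.69, SE 0.15, adjusted p = 0.0035, 13.8% of genes called). Without replicate 5 that last call was lost (−0.50, adjusted p = 0.0933).

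With Il-4, Lst1 was not called in any contrast. Replicates 1–3 held 33.9, 48.5 and 38.3 CPM with PBS, 30.7, 56.9 and 51.0 CPM with 65–79*SE, and 35.3, 43.1 and 42.9 CPM with 65–79*PE. Replicates 4–6 were closer together, with 26.5, 25.1 and 25.5 CPM with PBS, 26.8, 24.4 and 25.2 CPM with 65–79*SE, and 26.8, 22.4 and 25.0 CPM with 65–79*PE. The groups overlapped in both label sets, and over all replicates the 95% intervals were −0.16 to 0.35 for 65–79*SE against PBS and −0.28 to 0.23 for 65–79*PE against PBS on the log2 scale (adjusted p = 0.672 and 0.930).

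Ltb moved one way with IFNγ and the other way with Il-4. In the IFNγ libraries, replicates 1–3 held 4.68, 6.97 and 6.73 CPM with PBS, 9.34, 9.24 and 10.5 CPM with 65–79*SE, and 9.72, 9.57 and 11.1 CPM with 65–79*PE. Peptide libraries lay above PBS and overlapped each other. The rise with 65–79*PE was 1.70-fold (log2 fold change 0.76, SE 0.14, edgeR adjusted p = 0.00063), the untested 65–79*SE difference was 1.61-fold (0.69, 95% interval 0.38 to 1.00), and 65–79*SE minus 65–79*PE was −0.08 (95% interval −0.37 to 0.22, adjusted p = 0.731).

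Replicates 4–6 of the IFNγ libraries held 2.35, 2.48 and 1.87 CPM of Ltb with PBS, 2.62, 1.71 and 1.63 CPM in the libraries labelled 65–79*SE, and 5.08, 4.78 and 4.24 CPM with 65–79*PE. The 65–79*PE libraries stood alone above the other 6, which overlapped. The 65–79*PE rise was 2.11-fold (1.08, SE 0.20, adjusted p = 0.0018) and did not differ from that of replicates 1–3 beyond its error (difference 0.35, 95% interval −0.14 to 0.84). Against 65–79*PE the libraries labelled 65–79*SE were 2.36-fold lower (−1.24, SE 0.21, adjusted p = 0.00083).

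In the Il-4 libraries Ltb fell with both peptides. Replicates 1–3 held 5.12, 8.76 and 5.91 CPM with PBS, 1.37, 3.30 and 3.94 CPM with 65–79*SE, and 1.25, 2.20 and 2.52 CPM with 65–79*PE. Replicates 4–6 held 14.1, 9.15 and 7.27 CPM with PBS, 4.30, 4.71 and 4.04 CPM with 65–79*SE, and 3.17, 2.75 and 2.06 CPM with 65–79*PE. Each PBS library lay above each peptide library of its label set. The fall with 65–79*PE was 3.21-fold in replicates 1–3 (−1.68, SE 0.38, adjusted p = 0.0212, 1.64% of genes called lower) and 3.77-fold in replicates 4–6 (−1.91, SE 0.25, adjusted p = 0.0045, 1.18% called lower of 2.24% in all; −1.91, SE 0.19, adjusted p = 0.0021 with the replicate number as a block, where 635 genes were called in place of 302), and over all replicates it was 3.55-fold (−1.83, SE 0.23, adjusted p = 3.1e-05, 4.38% called). The fall with 65–79*SE was 2.23-fold (−1.16, SE 0.36, adjusted p = 0.0483, 3.37% called lower of 6.44% in all), 2.33-fold (−1.22, SE 0.25, adjusted p = 0.0492, 0.267% called lower of 1.05% in all) and, over all replicates, 2.32-fold (−1.21, SE 0.22, adjusted p = 0.0024, 3.12% called). Neither fall differed between the label sets beyond its error, with a difference of −0.01 for 65–79*SE (95% interval −1.03 to 1.01, 3.91% of genes called) and −0.18 for 65–79*PE (95% interval −1.19 to 0.83, 0.00705% called).

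Within a label set these Ltb calls rested on few libraries. The 65–79*SE call was lost in replicates 1–3 without replicate 2 or 3 (adjusted p = 0.414 and 0.201) and in replicates 4–6 without replicate 4, 5 or 6 (0.111, 0.554 and 0.104), and the 65–79*PE call was lost without replicate 2, 3 or 5 (0.236, 0.184 and 0.303), while the fold kept its direction in all of these fits. Over all replicates both calls held without any 1 replicate number.

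The 2 peptides did not differ in Ltb with Il-4 beyond the adjusted threshold. Every 65–79*SE library lay above every 65–79*PE library in replicates 4–6, which is a description and no test. The difference there was 0.69 (95% interval 0.12 to 1.26, edgeR adjusted p = 0.608). It was 0.52 in replicates 1–3 (95% interval −0.33 to 1.38, adjusted p = 0.878) and 0.61 over all replicates (95% interval 0.12 to 1.11, adjusted p = 0.541). No gene was called between the peptides with Il-4 in either label set (0% of 12350 and 0% of 13472), where 557 and 1055 genes had an unadjusted p under 0.05 and DESeq2 called 0 and 28, and over all replicates 0.00705% were called.

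Lta was the scarcest of the 4 and was measured from few reads. In the IFNγ libraries of replicates 1–3, PBS held 0.252, 0.364 and 0.218 CPM (7 to 12 counts), 65–79*SE 1.61, 1.25 and 1.70 CPM (43 to 64 counts), and 65–79*PE 0.851, 0.985 and 1.42 CPM (29 to 50 counts). Both peptide groups lay above PBS and overlapped each other. The rise with 65–79*PE was 3.97-fold (log2 fold change 1.99, SE 0.32, edgeR adjusted p = 0.00018), the untested 65–79*SE difference was 5.51-fold (2.46, 95% interval 1.80 to 3.12), and 65–79*SE minus 65–79*PE was 0.47 (95% interval −0.07 to 1.01, adjusted p = 0.193).

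Replicates 4–6 of the IFNγ libraries did not show this rise. PBS held 0.162, 0.0394 and 0.685 CPM (1 to 29 counts), the libraries labelled 65–79*SE 0, 0.386 and 0.169 CPM, and 65–79*PE 0.0417, 0.355 and 0.279 CPM, and all groups overlapped. The 65–79*PE difference was −0.39 (95% interval −2.26 to 1.49, adjusted p = 0.802). Its distance from the rise in replicates 1–3 was −2.33 (95% interval −4.25 to −0.42, adjusted p = 0.106). A count of 0 allows up to 3 counts at 95% confidence, which is 0.0541 to 0.166 CPM with IFNγ and 0.0949 to 0.172 CPM with Il-4, for counting error only. With Il-4, Lta ran from 0 to 0.766 CPM, was at or under 3 counts in 9 of 18 libraries, was not called in replicates 1–3 (0.19 with 65–79*SE and −0.39 with 65–79*PE) and did not pass the filter on low counts in replicates 4–6.

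**Figure D2:**
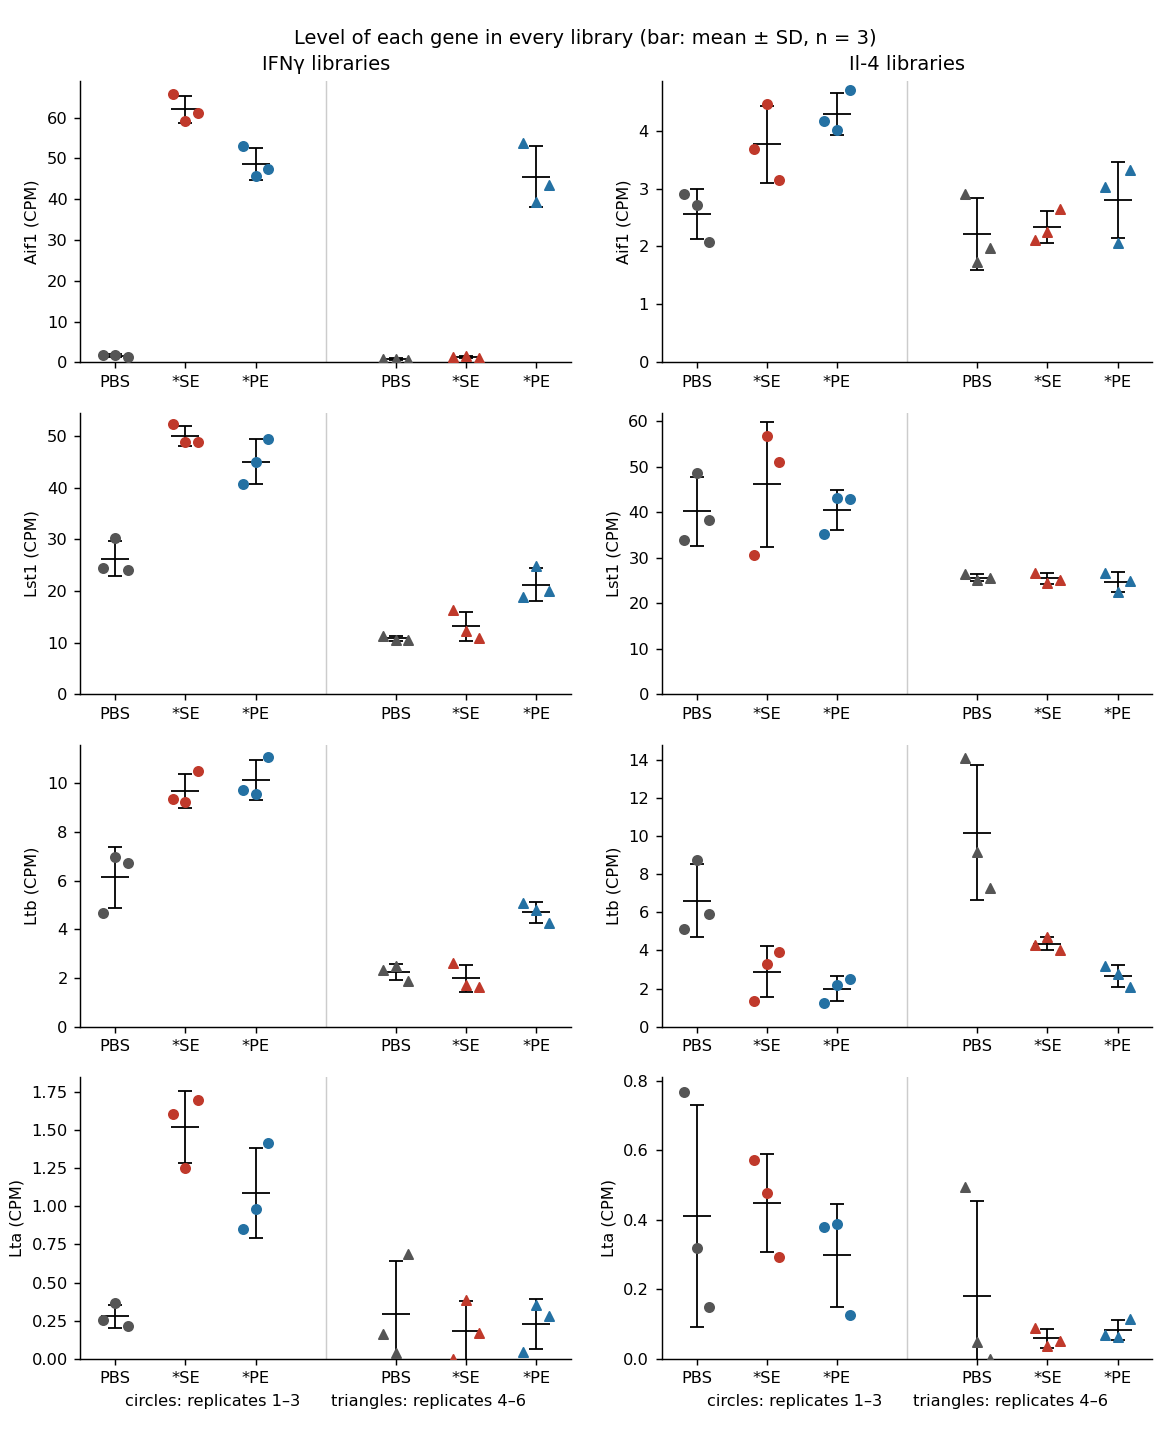
CPM of Aif1, Lst1, Ltb and Lta (rows, each with its own linear axis from 0) in every library of the IFNγ (left) and Il-4 (right) tables. Points are libraries, circles replicates 1–3 and triangles replicates 4–6, bars are mean ± SD (n = 3) with the part under 0 not drawn, and the Aif1 panel with IFNγ shows 65–79*SE at 62.0 CPM in replicates 1–3 and 1.33 CPM in replicates 4–6.

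**Figure D3:**
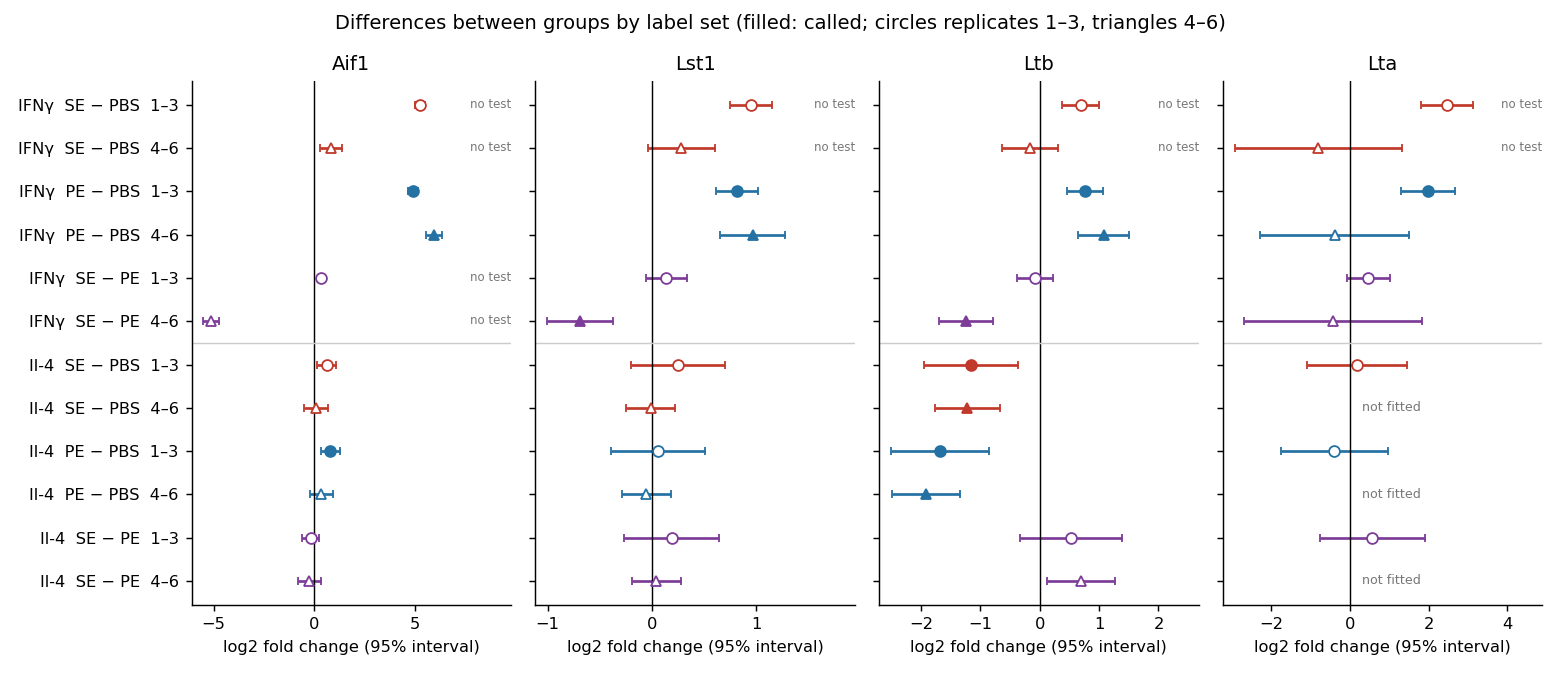
Log2 fold changes with 95% intervals (horizontal axes, each on its own scale) for each gene, contrast and label set, with circles for replicates 1–3, triangles for replicates 4–6 and filled symbols for called differences. "No test" marks contrasts that use the libraries that chose the gene, and Ltb has its IFNγ changes against PBS mostly right of 0 and its Il-4 changes against PBS left of 0.

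Across the cytokines, the difference between the peptides in replicates 1–3 was compared in 1 model of 12 libraries. For Lst1, 65–79*SE minus 65–79*PE with IFNγ was −0.09 from that with Il-4 (95% interval −0.59 to 0.42, edgeR adjusted p = 0.896). For Ltb it was −0.64 (95% interval −1.49 to 0.21, adjusted p = 0.359) and for Lta −0.14 (95% interval −1.23 to 0.94, adjusted p = 0.932), where 3.79% of 15204 genes were called. For Aif1 it was 0.49 (95% interval 0.14 to 0.85), given without a test.

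The 4 genes did not share 1 pattern. With 65–79*PE and IFNγ all 4 were called higher in replicates 1–3 (10.3% of all genes), and Aif1, Lst1 and Ltb, but not Lta, in replicates 4–6 (6.16% of all genes). For Aif1 these calls are no independent support, because the contrast that chose it used the same PBS libraries and the same cytokine. With 65–79*PE and Il-4, Ltb was called lower in both label sets (1.64% and 1.18% of all genes), Aif1 was called higher in replicates 1–3 (2.31%), and Lst1 was called in neither.

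Tnf, the macrophage cytokine gene between Ltb and Lta, had its own pattern. With 65–79*PE and IFNγ it rose in replicates 1–3 (from 24.7 ± 4.90 to 42.8 ± 1.39 CPM, log2 fold change 0.83, SE 0.11, edgeR adjusted p = 4.5e-05), and in replicates 4–6 the difference was 0.18 (SE 0.10, adjusted p = 0.227). With Il-4 it fell, as Ltb did, with 65–79*SE (−1.08, SE 0.29, adjusted p = 0.0259) and with 65–79*PE (−1.06, SE 0.28, adjusted p = 0.0407) in replicates 1–3, and the differences in replicates 4–6 were −0.43 and −1.07 (adjusted p = 0.396 and 0.0612). Nfkbil1, beyond Lta, rose with 65–79*PE and IFNγ in replicates 1–3 (0.74, SE 0.09, adjusted p = 1.1e-05) and differed by 0.35 in replicates 4–6, under the fold limit. Prrc2a, on the other side of Aif1, was not called in any contrast within a label set, and over all Il-4 replicates it was lower with 65–79*PE (−0.71, SE 0.15, adjusted p = 0.0040). The pseudogene Ncr3-ps next to Aif1 had at most 1 count in any library, and the noncoding gene Gm17705 ran from 0.0265 to 0.742 CPM.

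Of the 53 class III genes listed, the 4 included, 42 passed the filter in replicates 1–3 of the IFNγ libraries and 40 in replicates 4–6. With 65–79*PE and IFNγ 12 were called higher and 0 lower in replicates 1–3, where 10.3% of all genes were called higher, with a median log2 fold change of 0.31 beside 0.0019 for all genes. Replicates 4–6, where 6.16% of all genes were called higher, had 7 called higher and 0 lower, with a median of 0.10 beside −0.0037 for all genes. Others named by the rule were Gpank1 (0.73, SE 0.07) in replicates 1–3 and Abhd16a (0.67, SE 0.08) in replicates 4–6. Cfb, complement factor B, named after its values were seen, went from 0 to 1 counts in PBS to 16 to 24 counts with 65–79*PE in replicates 1–3. C4b, a complement C4 gene named in the same way, rose by 2.78 (SE 0.32) and 2.27 (SE 0.35) on the log2 scale in the label sets, and it shares sequence with C4a, so that its reads are uncertain. Il-4 with 65–79*PE, where 3.95% and 2.24% of all genes were called, gave 1 higher (Aif1) and 2 lower (Ltb and Tnf) of 38 in replicates 1–3, and 0 higher and 4 lower of 35 in replicates 4–6 (Ltb, Vars, Skiv2l and Atf6b).

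**Figure D4:**
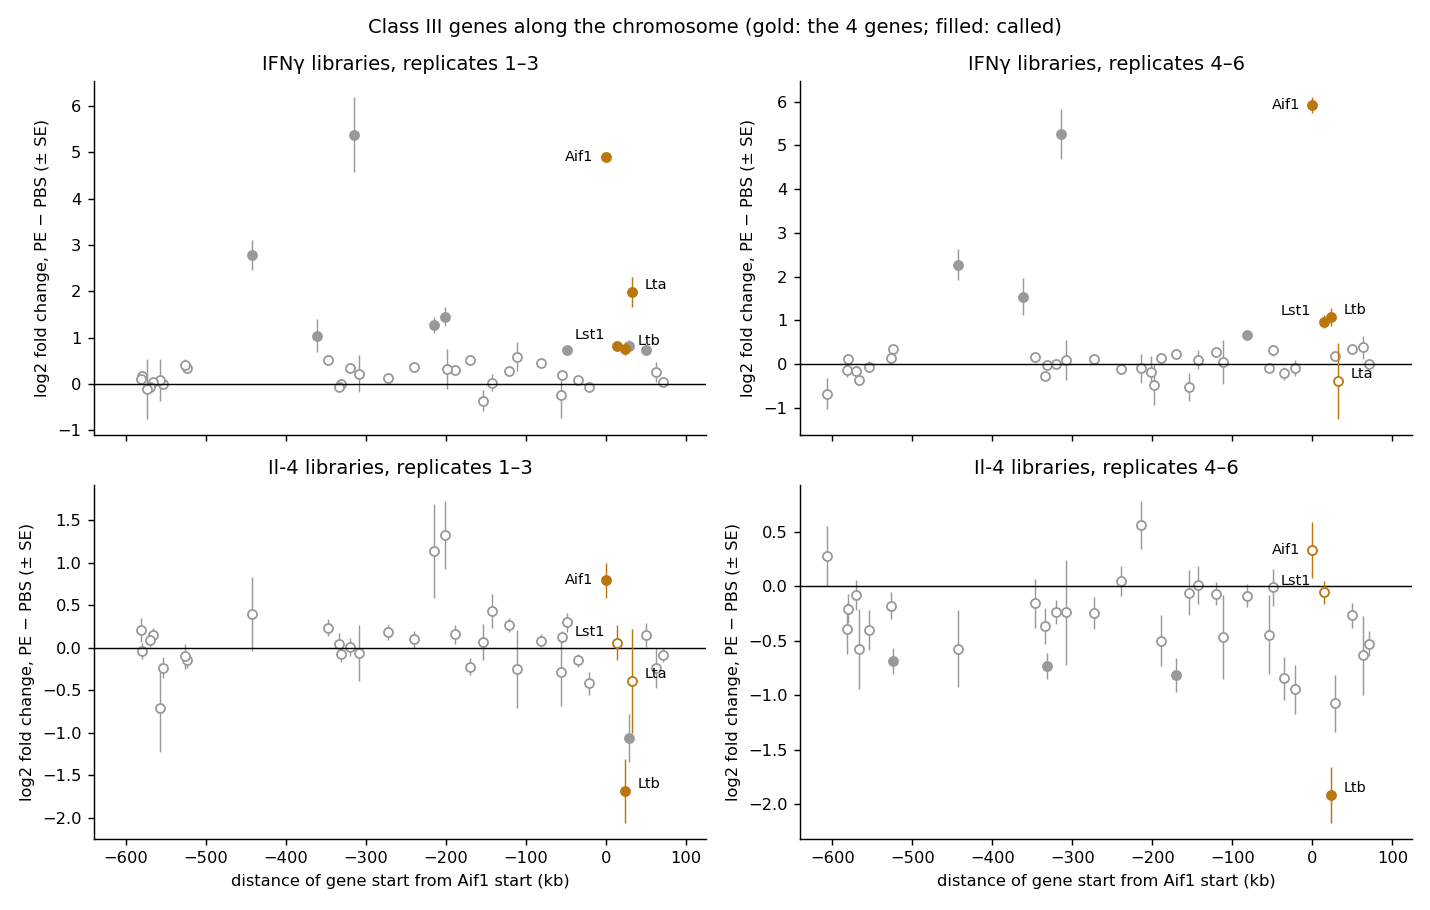
Log2 fold change of 65–79*PE against PBS (vertical axes, ± SE) for each class III gene tested, by distance of its start from that of Aif1 in kb (horizontal axes), for both tables and label sets, with the 4 genes in gold and called genes filled. Aif1 is the highest of the 4 genes in every panel, at 4.89 and 5.92 with IFNγ, and Ltb is above 0 with IFNγ and the lowest point in both Il-4 panels.

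The genes of the lymphotoxin and TNF pathway are counted here beside the 19.8% and 10.8% of all genes called with 65–79*PE and IFNγ in replicates 1–3 and 4–6. Among the 4 lymphotoxin and TNF receptors, Tnfrsf14, which binds the related ligand LIGHT, was the member called with 65–79*PE and IFNγ (0.90, SE 0.23, adjusted p = 0.0059 in replicates 1–3 and 2.00, SE 0.20, adjusted p = 1.9e-05 in replicates 4–6). Ltbr, the receptor of the lymphotoxin heterotrimer, differed by 0.50 (SE 0.07) and 0.06 (SE 0.09), under the fold limit. Of 15 signalling genes, 1 was called higher in replicates 1–3, the noncanonical NF-κB kinase Map3k14 (0.65, SE 0.09, adjusted p = 4.4e-05), and 1 lower in replicates 4–6. Of 5 inhibitors, 3 were called lower in each label set and 0 higher. Nfkbia, an inhibitor of NF-κB, was among them in both, at −0.86 (SE 0.08) and −0.62 (SE 0.10). Of 9 genes that the lymphotoxin receptor is known to induce, 2 passed the filter, and 1 of these was called higher in each label set. With 65–79*PE and Il-4, where 3.95% and 2.24% of all genes were called, 0 of 4 receptors, 0 of 5 inhibitors and 0 of the 2 targets tested were called in either label set, and Map3k14 was lower with 65–79*PE in replicates 4–6 (−0.64, SE 0.13, adjusted p = 0.030).

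Of 16 genes of actin ruffling, the process Aif1 takes part in, Aif1 included, 14 were tested, and with 65–79*PE and IFNγ 2 were called higher and 1 lower in each label set, with a median log2 fold change of −0.13 and 0.17. Over all genes 19.8% and 10.8% were called, so the count in replicates 1–3 is near that of all genes. Besides Aif1, Coro1a, an actin-binding protein of leukocytes, rose by 0.94 (SE 0.10) and 1.08 (SE 0.11), and Actn1, alpha-actinin, fell by 1.06 (SE 0.07) and 0.87 (SE 0.11). Of 13 inhibitory receptors and phosphatases, the group of Lst1, which includes Lst1 itself, 2 were called higher and 2 lower in replicates 1–3 and 4 higher and 0 lower in replicates 4–6, beside the same 19.8% and 10.8% of all genes. Clec12a, an inhibitory C-type lectin receptor, rose with 65–79*PE and IFNγ in both (1.00, SE 0.08 and 1.32, SE 0.12), and Pirb, an inhibitory receptor for MHC class I, fell in replicates 1–3 (−0.97, SE 0.10) and rose with Il-4 in both (0.80, SE 0.09 and 0.79, SE 0.13).

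The genes most like each member were found by the root mean square difference of their changes from PBS over the 12 peptide libraries with IFNγ, among 13038 genes. Nearest to Aif1 were Klrk1 (0.545 on the log2 scale), Gm4841 (0.557) and Gbp10 (0.655). Nearest to Lst1 were Hpcal1 (0.150), Arrb2 (0.161) and Clec4a2 (0.173), and nearest to Ltb were H2-M3 (0.167), Dusp6 (0.226) and Ripk3 (0.227). These are descriptions over libraries that share their PBS base and the grouping by IFNγ response.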

How the data were processed

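RNA-seq gene counts of 36 RAW264.7 libraries were analysed, 18 per cytokine. The deposited values are raw counts: the authors aligned single-end 100-base reads, assigned reads with 1 alignment to genes with featureCounts (1.5.0p3) against Gencode M12 on GRCm38.p5, and tested 6 against 6 with DESeq2. The aligner settings and strand option are not given in the sources used here. The study describes 6 biological replicates per group from 2 independent experiments, without tying them to label sets. Positions came from GENCODE M21 (GRCm38), which held 95.25% of the gene names, and 26 names read as dates.

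Counts were tested with edgeR 4.0.16 (R 4.3.3) by the quasi-likelihood test with TMM scaling, filterByExpr and Benjamini-Hochberg adjustment over all genes tested, called at an adjusted p under 0.05 and a fold over 1.5. Each label set was fitted alone (9 libraries) and, where labels allowed, pooled with the label set as a term. Levels are CPM on TMM library sizes. Whether the libraries of 2 groups overlap is given as a description, without the share of all genes that do not overlap. The genes and lists were chosen with earlier results of these data known. From the IFNγ response list, 1 gene was left out and is not reported here. From each list, neighbours and up to 3 called genes with the largest change and a mean of at least 10 CPM were named. Scripts were tested on simulated counts. Replicate numbers were checked by correlating same-numbered samples' deviations from their group means. All 3 pairs were over 0.1 for 65–79*PE and PBS in Il-4 replicates 4–6 (0.356, 0.190 and 0.395) and for the peptides in Il-4 replicates 1–3 (0.389, 0.143 and 0.145). They were taken as paired there, by the data and not the labels, only in fits with the replicate number as a block. Every value not said to come from such a block is from an unpaired fit. Alternatives were DESeq2 1.42.0, RLE scaling, other filters, no label set term, a shared spread, a replicate block, and leaving out replicates. Fits without the libraries labelled 65–79*SE, replicates 4–6, were added after seeing the data.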

Additional observations from a re-analysis of the deposited data

Results flagged for a closer look

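Aif1 was flagged because its rise with 65–79*PE and IFNγ differed between the label sets, by 1.06 on the log2 scale (replicates 4–6 minus 1–3, edgeR adjusted p = 0.0087). This difference rests on the PBS libraries that were also used to choose Aif1, so its p is no independent support. Every 65–79*PE library lay above every PBS library in both sets, and the value without the libraries labelled 65–79*SE, replicates 4–6, was 1.00 (adjusted p = 0.0195).

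Lst1 and Ltb were flagged because 65–79*SE minus 65–79*PE with IFNγ differed between the label sets, by −0.85 for Lst1 (adjusted p = 0.0013) and by −1.19 for Ltb (adjusted p = 0.0011), where 16.6% of genes were called. All 3 of the libraries labelled 65–79*SE, replicates 4–6, enter these differences, and their IFNγ response score of 1.16 ± 0.20 stood at the PBS level.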

How the results depend on the processing

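For the 4 genes, 652 alternative values of 89 results were computed, of which 609 were counted as the same. These kept their direction and, if tested, their side of the threshold, or, if untested, moved by less than the spread within groups. Fits in which a gene did not pass the filter gave no value. Without the label set term the pooled rises with 65–79*PE and IFNγ were 0.84 for Lst1 (adjusted p = 0.345) and 0.83 for Ltb (0.454), and the fall of Ltb with 65–79*SE and Il-4 was −1.21 (0.110), all no longer past the threshold. For Aif1 with 65–79*SE and Il-4 in replicates 1–3, DESeq2 gave 0.61 (adjusted p = 0.0413) and the replicate block 0.60 (0.0390), both now past it. With a shared spread Aif1 with 65–79*PE and Il-4 in replicates 1–3 was 0.74 (0.0549). Ltb with 65–79*SE and Il-4 in replicates 4–6 was −1.21 under RLE scaling (0.0521) and under a filter of 10 counts (0.0522). Ltb between the peptides with Il-4 over all replicates was 0.62 without a filter (0.0485). The near-zero Lst1 value of 65–79*SE with Il-4 in replicates 4–6 changed sign under RLE scaling (0.0036), DESeq2 (0.0035) and no filter (0.0020), as did that of 65–79*PE over all replicates under RLE scaling (0.00052) and DESeq2 (0.00049). The cause of these changes was not tested.

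Leaving out 1 replicate at a time gave the following ranges on the log2 scale. With IFNγ, Lta with 65–79*SE in replicates 1–3 ran from 2.24 to 2.81, Lta with 65–79*PE over all replicates from 0.38 to 1.69, and Lst1 between the peptides in replicates 4–6 from −0.95 to −0.50. With Il-4 in replicates 1–3 the ranges with 65–79*SE were 0.51 to 0.73 for Aif1, −1.53 to −0.95 for Ltb and −0.0071 to 0.0022 for Lta, and with 65–79*PE 0.59 to 0.92 for Aif1, −0.021 to 0.17 for Lst1 and −1.96 to −1.50 for Ltb. The Lta range holds only 2 fits, since Lta did not pass the filter in the other, and the value with all replicates was 0.19 (SE 0.58). In replicates 4–6 with Il-4 the ranges were −0.070 to 0.39 for Aif1, −0.024 to 0.0084 for Lst1 and −1.36 to −0.90 for Ltb with 65–79*SE, and −2.01 to −1.73 for Ltb with 65–79*PE. Over all Il-4 replicates they were −0.53 to 0.21 for Lta with 65–79*SE, and 0.42 to 0.70 for Aif1 and −0.061 to 0.014 for Lst1 with 65–79*PE. Between cytokines the peptide difference ran from 0.32 to 0.69 for Aif1, −0.32 to 0.088 for Lst1 and −0.33 to 0.15 for Lta. Calls were gained for Lta with 65–79*PE and IFNγ over all replicates without replicate 6 (adjusted p = 0.0175), for Aif1 with 65–79*SE and Il-4 in replicates 1–3 without replicate 1 (0.0375), and for Aif1 with 65–79*PE and Il-4 over all replicates without replicate 4 (0.00929).

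Counts of called genes over the whole table also moved. With Il-4 in replicates 1–3 they were 795 with 65–79*SE (27 to 1904 leaving out 1 replicate) and 488 with 65–79*PE (44 to 929). In replicates 4–6 they were 141 with 65–79*SE (up to 697 over other settings, 8 to 123 leaving out 1 replicate) and 302 with 65–79*PE (273 to 635, and 4 to 402). Over all replicates they were 443 (62 to 670, and 239 to 458) and 621 (115 to 758, and 404 to 594), the lowest of these without the label set term. Between the peptides with Il-4 the count was at most 155 under any setting, without a filter. With IFNγ, 65–79*PE against PBS over all replicates went from 2175 to 909 without the label set term, 65–79*SE against PBS in replicates 4–6 from 112 to between 0 and 519, and the peptides in replicates 1–3 from 933 to as few as 600. The peptide difference between cytokines went from 576 to between 29 and 809.

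Correlations of the deviations of same-numbered samples ran from −0.126 to 0.125 with IFNγ. With Il-4 their median was 0.145 in replicates 1–3 and 0.190 in replicates 4–6, 6 of 9 pairs in each being over 0.1, beside −0.139 and −0.0503 for different numbers, and not every sample correlated best with its own number. The replicate block changed no other call of the 4 genes, though with Il-4 in replicates 4–6 it raised the calls from 141 to 447 with 65–79*SE and from 302 to 635 with 65–79*PE. The 3 libraries per group in a label set limit the precision, and Lta was at 3 counts or fewer in 3 of 18 IFNγ and 9 of 18 Il-4 libraries.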
